A study of Mus musculus with 6 samples.

Results

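The MYC family with its partner MAX, and the immediate early genes of the AP-1 and EGR groups, were examined in cystic mouse kidneys. The members were the genes *Myc*, *Mycn*, *Mycl*, *Max*, *Fos*, *Fosb*, *Jun*, *Junb*, *Egr1* and *Atf3*, chosen by name and matched to the gene symbol of each transcript in the authors' deposited table. Of these 10 genes 9 were matched, in 12 of 54721 transcript rows, out of 23276 gene symbols in all. *Mycl* matched no row. A row under *Mycl1*, which RefSeq gives as an older symbol of *Mycl*, was outside the matching rule, and its values are given here under that name.

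RNA of 6 kidneys was sequenced, 3 in each of 2 groups. All mice carried Ksp/Cre, a Cre recombinase that is expressed in kidney tubules, and a *Pkd1* F/RC genotype, in which one allele is flanked by *loxP* sites and the other is the hypomorphic RC allele. The mice of the second group were also homozygous for a floxed miR-17∼92 cluster. The first group is named *Pkd1* F/RC SKO (single knockout) and the second *Pkd1* F/RC DKO (double knockout) by the study. The RNA came from whole kidneys, which also hold cells in which Ksp/Cre is not active. The labels give the age as postnatal day 22, and the paper's text gives 21 days. No kidney without a *Pkd1* mutation was analysed here.

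The comparison implied by this design, DKO against SKO kidneys, was not made. Beside the columns of the authors' own comparison, which were not used, the table holds 1 pooled value for each transcript, the mean abundance over both groups as log2 CPM (counts scaled to 1000000 counts of library size). Values of single kidneys were not available. The depth of each library, the spread between mice and the level in either group are therefore unknown here, no test was possible, and deletion of the cluster could not be checked. Each level given is the authors' mean, without an error.

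MYC proteins are transcription factors that bind DNA as dimers with MAX, and they drive growth and the cell cycle. MYC activates transcription of the miR-17∼92 cluster. FOS and JUN proteins pair to form AP-1, and *Fos*, *Fosb*, *Jun*, *Junb*, *Egr1* and *Atf3* are switched on within minutes of a growth factor or stress stimulus. Their mRNAs are often short-lived, and AU-rich elements in the 3′-UTR are known to direct the decay of several of them.

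The floxed cluster encodes miRNAs with 4 different seeds, the bases 2 to 8 that pair with target mRNAs. Their mature sequences are shown because the 3′-UTRs of the members were searched for matches to these seeds, which are in capitals. The sequences are those of RefSeq on GRCm38.p6, and miR-17 lies at chr14:115043684-115043706 on the forward strand.
miR-17-5p: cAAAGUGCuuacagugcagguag
miR-20a-5p: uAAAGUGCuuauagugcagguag
miR-18a-5p: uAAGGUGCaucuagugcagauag
miR-19a-3p: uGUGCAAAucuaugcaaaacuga
miR-19b-3p: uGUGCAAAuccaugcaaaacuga
miR-92a-3p: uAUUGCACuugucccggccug
miR-17 and miR-20a share a seed, as do miR-19a and miR-19b.

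*Mycn* was the member with the most seed matches. *Mycn*, the family member known from the developing kidney and from neuroblastoma, lies at chr12:12936093-12941914 on the reverse strand in the GENCODE annotation of GRCm38, the assembly of mm10. Its 3′-UTR of 913 nucleotides held 1 match each to the miR-17, miR-18a and miR-19 seeds. The miR-18a and miR-17 matches lay at positions 851 to 857 and 861 to 867 of the 3′-UTR, close to its end, and the miR-19 match at positions 30 to 36. The matches, in capitals, are shown with their flanks, the last 2 sequences being those of *Fosb* and *Atf3*.
Mycn miR-17 match: tgcaccttagaGCACTTTgaaatacctcat
Mycn miR-18a match: tatttagtgctGCACCTTagagcactttga
Mycn miR-19 match: gtcactgccacTTTGCACattttgattttt
Fosb miR-19 match: tttttttgtatTTTGCACctgaccccgggg
Atf3 miR-17 match: ggatgttaatgGCACTTTtgtcttgtagct
Exact matches of 7 bases on the transcript strand were sought.

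Such matches are found in many genes. Of 2904 other 3′-UTRs within 25% of the length of that of *Mycn*, 7.89% held the miR-17 match GCACTTT, 5.30% the miR-18a match GCACCTT and 8.30% the miR-19 match TTTGCAC. Matches to 3 or more of the 4 seeds were present in 1.21% of all 18862 3′-UTRs. *Atf3*, which encodes a stress-induced factor of the ATF family, held its match at positions 952 to 958 of a 3′-UTR of 1186 nucleotides, and 11.3% of 3000 3′-UTRs of similar length held GCACTTT. *Fosb* held a match to the miR-19 seed, which was present in 16.2% of 2769 3′-UTRs of similar length. In *Myc*, *Max*, *Fos*, *Jun*, *Junb* and *Egr1* none of the 4 matches was present in the 3′-UTR searched. The *Mycl1* row had a TTTGCAC match in its 3′-UTR. A match is a description of the sequence, and its use in these kidneys was not measured.

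*Max* and *Myc* were the most abundant members of the MYC group. *Max*, the obligate partner of MYC proteins, had a mean of 31.5 CPM over both groups, the highest of the 9 members, and 87.4% of the 23276 gene symbols lay below it. *Myc* had a mean of 9.87 CPM, above 67.6% of gene symbols. *Mycn* had a mean of 2.23 CPM, close to the median of 2.36 CPM over all gene symbols. The *Mycl1* row had a mean of 1.58 CPM. On the log2 scale these mean levels were 4.98 for *Max*, 3.30 for *Myc*, 1.16 for *Mycn* and 0.66 for *Mycl1*. The *Mycn* and *Mycl1* means lay below that of the median gene.

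Longer transcripts give more reads, so levels were compared between genes per kilobase of transcript. The mean level of *Max* was 16.2 CPM per kilobase, that of *Myc* 4.22 and that of *Mycn* 0.84. The *Mycl1* row was at 0.45 CPM per kilobase. *Myc* was 5.05-fold above *Mycn* and *Max* was 3.84-fold above *Myc* on this scale. With no spread between mice, no distance between neighbours in this order could be tested.

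Several rows of a gene need not be independent measurements. The 2 RefSeq rows of *Myc* (NM_001177354 and NM_010849) had the same mean log2 CPM of 3.30, and both identifiers belong to 1 GENCODE transcript of 2338 nucleotides. The RefSeq rows of *Max* (NM_008558 and NM_001146176) differed by 0.00013 on the log2 scale. The remaining *Max* row, assembled from the reads (CUFF.8025.3), had a mean of 8.99 CPM. Among 3911 genes with several RefSeq mRNA rows, the rows of 44.8% lay within 0.01 of each other in mean log2 CPM. Such rows may carry almost the same reads, in which case a sum over rows counts reads more than once. Shared reads were not measured.

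**Figure D1:**
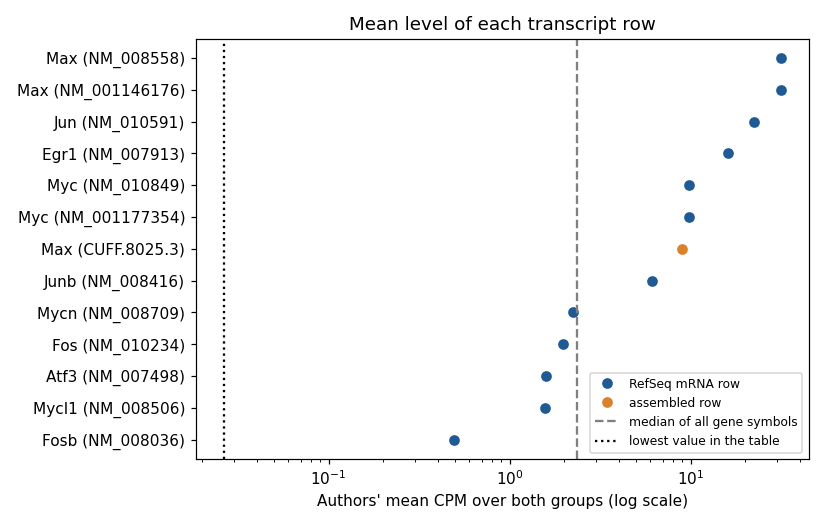
Authors' mean CPM over both groups on a log axis for each of the 12 rows of the members and for the Mycl1 row, with RefSeq rows in blue and the assembled Max row in orange. The dashed line is the median of all gene symbols (2.36 CPM) and the dotted line the lowest value in the table (0.0263 CPM); rows range from 0.493 CPM for Fosb to 31.5 CPM for Max, and no error is shown because the table holds only the mean.

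Among the 4 AP-1 members, *Jun* and *Junb* stood above *Fos* and *Fosb*. *Jun* had a mean of 22.4 CPM and *Junb*, a *Jun* relative that can oppose it at some genes, 6.14 CPM. *Fos* had a mean of 1.96 CPM. *Fosb* had the lowest level of the members at 0.493 CPM, which was 18.7 times the lowest value in the table. That lowest value, 0.0263 CPM, was shared by 4617 transcripts. It is thus a floor, and the ratio to it is not a measured difference in level. Without counts, whether transcripts at the floor had any reads is unknown here.

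Per kilobase the order was the same. *Jun* was at 7.03, *Junb* at 3.40, *Fos* at 0.93 and *Fosb* at 0.13 CPM per kilobase. *Jun* was thus 7.54-fold above *Fos* and 53.9-fold above *Fosb*, while *Junb* was 3.64-fold above *Fos*. The 9 members spanned a 124.3-fold range per kilobase, from *Fosb* to *Max*.

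*Egr1*, a zinc finger factor that responds to growth factors, had a mean of 16.1 CPM, above 76.5% of gene symbols. *Atf3* had a mean of 1.60 CPM, above 46.9%. Per kilobase *Egr1* was at 5.32 CPM and *Atf3* at 0.81 CPM, a 6.60-fold distance. *Fos*, *Mycn* and *Atf3* lay close together per kilobase, between 0.81 and 0.93 CPM, and without a spread between mice their order could not be tested.

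In total 8 of the 9 members had a mean of at least 1 CPM, beside 55.9% of all gene symbols, and 5 lay above the median gene. The median member, *Junb*, lay above 60.3% of gene symbols. Per kilobase, 5 members reached 1 CPM, namely *Max*, *Jun*, *Egr1*, *Myc* and *Junb*, and the median over 20099 genes with a known transcript length was 1.41 CPM per kilobase. That median lies above 1, so most of these genes also reached 1 CPM per kilobase.

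The levels of related genes give a scale for these values. The MYC network list held the MXD, MNT and MGA factors, which compete with MYC for MAX or for its DNA sites, and the MLX factors. Of its 9 genes 8 had a mean of at least 1 CPM, from 0.577 CPM for *Mxd3* to 85.1 CPM for *Mxd4*. Per kilobase their median was 3.35 CPM, beside 4.22 for *Myc*, and the highest was *Mxi1* at 11.2 CPM per kilobase.

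A second list held 10 other AP-1 and ATF factors, of which 7 had a mean of at least 1 CPM. *Fosl1* was lowest at 0.180 CPM, and *Atf4*, the effector of the integrated stress response, was highest at 43.2 CPM. *Jund*, the JUN family member that is expressed without a stimulus in many tissues, was at 14.5 CPM per kilobase and so above *Jun* at 7.03. *Fosl2*, a *Fos* family gene, was at 3.66 CPM per kilobase, above *Fos* at 0.93 and *Junb* at 3.40, so the order of the members does not extend to their families. With a mean of 23.9 CPM it also lay above *Jun* at 22.4 CPM on the scale without length.

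The third list held 17 other immediate early genes, of which 14 had a mean of at least 1 CPM. Their median level per kilobase was 2.94 CPM, beside 3.40 for the members. *Klf6* was highest at 64.1 CPM. *Egr4* stood at the lowest value of the table. Within the EGR family, *Egr1* at 5.32 CPM per kilobase was followed by *Egr2* at 0.78, *Egr3* at 0.039 and *Egr4*.

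Markers of the kidney tubule were above all members. The 6 markers of kidney tubules ranged from 77.7 CPM for *Aqp2*, the water channel of the collecting duct, to 1030 CPM for *Slc34a1*, the phosphate transporter of the proximal tubule. The lowest of them exceeded *Max* at 31.5 CPM. The 2 podocyte markers were at 13.0 and 33.2 CPM, the 2 endothelial markers at 27.0 and 52.7 CPM and the fibroblast markers *Pdgfrb* and *Col1a1* at 44.8 and 128.1 CPM. The 3 immune cell markers lay between 4.49 CPM for *Adgre1* and 8.20 CPM for *Ptprc*, a range that includes *Junb* at 6.14 CPM. In RNA of whole kidneys the number of cells that express a gene and the RNA per cell cannot be told apart, and the cells that gave the reads of the members were not identified.

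**Figure D2:**
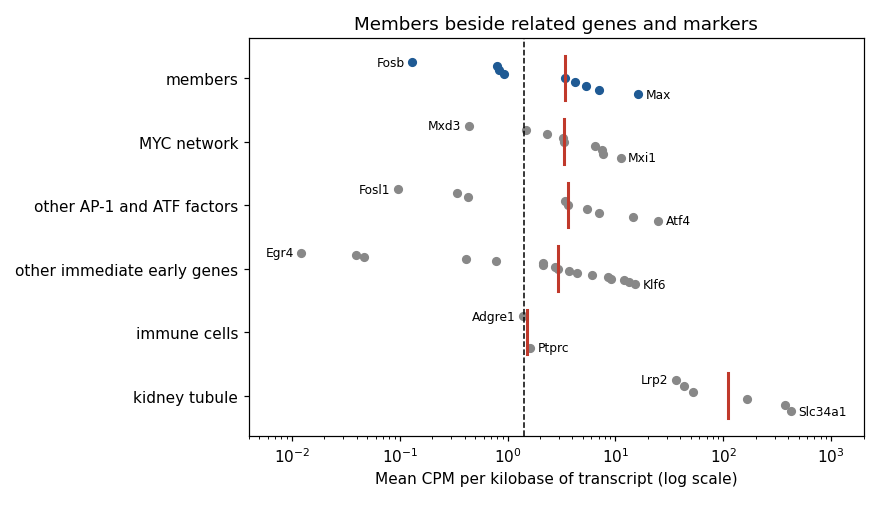
Mean CPM per kilobase of transcript on a log axis for the members (blue) and for genes of related lists and of immune and tubule markers (grey); each point is 1 gene with a known transcript length, red bars are the medians of the lists and the dashed line is the median of all genes (1.41). The members run from 0.13 for Fosb to 16.2 for Max, all below every tubule marker. The other immediate early genes run from 0.012 for Egr4 to 15.2 for Klf6. The CPM of Egr4 is the lowest value in the table, so its position here depends only on its transcript length.

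The members shared a compact structure that the choice by name did not use. All 9 had fewer exons than the median of 7 over 20099 genes. *Jun* and *Junb* consist of 1 exon in the transcript used, as do 10.03% of genes. *Myc*, *Mycn* and *Egr1* have 3 exons, *Fos*, *Fosb* and *Atf3* have 4 and *Max* has 5. The transcripts used for 8 of the 9 genes span less of the genome, introns included, than the median of 16604 bases over 20099 genes. *Junb* is the shortest with 1809 bases, followed by *Jun* at chr4:95049034-95052222 and by *Fos*, with 3384 bases at chr12:85473890-85477273. The *Atf3* transcript spans 13045 bases, whereas the whole *Atf3* gene with a longer transcript spans 47744. The exception was *Max*, with 24917 bases. *Myc* lies at chr15:61985391-61990374.

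An overlap in the annotation touches the level of *Jun*, whose exon overlaps *Junos* on the other strand. The exons of the transcripts used for the other 8 members overlap no other gene. The libraries were strand-specific, but whether strand was used in counting is not given in the sources used here, so reads of the overlapping part may not have been told apart.

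All 9 members held at least 1 AU-rich pentamer ATTTA in the 3′-UTR, as did 61.0% of all 3′-UTRs. That share rises with length. Among 3′-UTRs of similar length it ran from 45.9% for *Myc* to 91.8% for *Fosb*. The density exceeded the median of 1.25 per kilobase in 6 members. *Fos* had the densest 3′-UTR with 4.91 pentamers per kilobase, or 4 in 815 nucleotides, and 89.3% of 2776 3′-UTRs of similar length held fewer. *Myc* held 2 pentamers in 442 nucleotides, or 4.52 per kilobase, more than 80.7% of 3′-UTRs of similar length. *Junb* had 4.12, *Jun* 3.24, *Atf3* 2.53 and *Egr1* 1.68 pentamers per kilobase. Of 3′-UTRs of similar length, 78.6%, 77.1%, 65.2% and 46.8% held fewer pentamers, in this order. *Mycn*, *Max* and *Fosb* were below the median, with 1.10, 0.77 and 0.47. Only 30.2%, 18.7% and 8.23% of 3′-UTRs of similar length held fewer pentamers than these.

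The longer element TTATTTATT was present in *Fos* alone among the members, at chr12:85477113-85477121 (positions 655 to 663 of the 3′-UTR). It contains 1 of the 4 ATTTA pentamers of *Fos* whole and overlaps another, and it was found in 4.90% of 3′-UTRs of similar length. The element of *Fos* and pentamers of *Myc*, *Jun* and *Junb* are shown with the motif in capitals, since these are the members with the highest densities.
Fos: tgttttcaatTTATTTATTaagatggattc
Myc: taacagatttgtATTTAattgtttttttaa
Myc, second pentamer: ataattttttttATTTAaagacattttcat
Jun: tgtgctgtgatcATTTAtaatcataggaaa
Junb: atatatttgtgtATTTAacagggaggggag

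**Figure D3:**
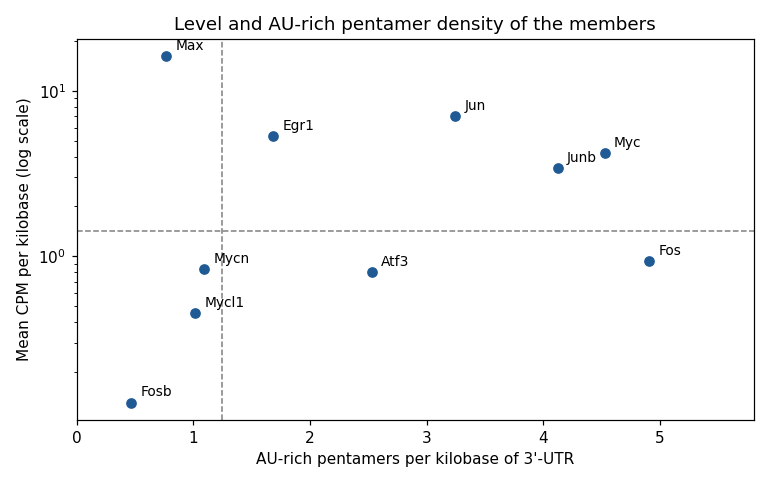
Mean CPM per kilobase of transcript (log axis) against the number of ATTTA pentamers per kilobase of 3′-UTR for the 9 members and the Mycl1 row. Dashed lines are the medians over all genes (1.41 CPM per kilobase and, for 3′-UTRs of at least 100 nucleotides, 1.25 pentamers per kilobase). Fos, Myc and Junb have the densest 3′-UTRs, and Fos lies below both Myc and Junb in level. Fosb has both the lowest density and the lowest level. A relation between density and level was not tested.

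Promoters of 8 of the 10 genes, from 250 bases before to 50 after the start in RefSeq, were searched for 6 motifs on both strands. The core TGACGT of the cAMP response element was present in the *Fos* and *Atf3* promoters and in 7.51% of 32851 promoters. None of the 8 member promoters searched had the full palindrome TGACGTCA, which contains this core and was present in 1.79% of promoters. The *Fos* element begins 66 bases before the start in both RefSeq and GENCODE. In *Atf3* the motif lies on the opposite strand, so that ACGTCA is in capitals. It begins 8 bases before the RefSeq start and 1 base before the start of the GENCODE transcript used. The E-box CACGTG, the sequence bound by MYC and MAX, was present among these 8 promoters only in that of *Max*, and in 7.15% of all promoters. It begins 3 bases before the RefSeq start and 66 before that of the GENCODE transcript used.
Fos: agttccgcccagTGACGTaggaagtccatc
Atf3: attaatagcattACGTCAgcctgggattgg
Max: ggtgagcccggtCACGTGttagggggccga
The *Fos* window lies at chr12:85473812-85473841, that of *Atf3* at chr1:191183324-191183353 and that of *Max* at chr12:76962234-76962263.

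The letters TATAAA were present in the *Fos*, *Junb* and *Mycl* promoters and in 13.6% of all promoters. They begin 33 bases before the start in *Fos*, at the RefSeq start in *Junb* and 8 bases before it in *Mycl*. The GENCODE transcript of *Junb* starts 30 bases further on. Neither the AP-1 site TGANTCA (7.81% of promoters) nor a CArG box, the site of serum response factor (1.63%), was found in the windows of these 8 members. The promoters of *Myc* and *Egr1*, and sequence outside the windows, were not searched. *Srf*, which encodes serum response factor, had a mean of 15.9 CPM in these kidneys, similar to *Egr1* at 16.1 CPM.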

How the data were processed

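Total RNA of flash-frozen kidneys was made into strand-specific libraries. Per the paper's methods and the submitters' processing notes, the authors trimmed 51 bp single-end reads, mapped them to mm10 with TopHat 2.0.12 and the iGenomes annotation, and kept alignments whose mapping quality reached 10. The notes also name Cufflinks, featureCounts of Subread 1.4.6 and edgeR 3.2.4. The deposited log2 values used here are the authors' mean log2 CPM over both groups, 1 for each transcript. Other columns hold the authors' fold change, likelihood ratio, p-value and adjusted p-value and were not used. A test on counts was planned but could not be run, because no value of a single kidney was available. No filter was applied, and depth is unknown.

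A gene was represented by its row with the highest mean CPM. Every row of the members is reported, and of each related list the lowest and highest gene by rule. *Mycl1*, *Mxi1*, *Jund*, *Fosl2*, *Egr2*, *Egr3*, *Srf* and the markers given by name were chosen after their values were seen. The members and lists were chosen with earlier results of these data known. Transcript lengths and 3′-UTRs came from GENCODE M21 (GRCm38) by RefSeq identifier, for 20099 and 18862 genes. Promoters and miRNAs came from RefSeq (GRCm38.p6). The percentile calculation was tested on simulated data. Python 3.11.15, numpy 2.4.6, pandas 2.3.3 and matplotlib 3.10.9 were used.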

Additional observations from a re-analysis of the deposited data

How the results depend on the processing

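With the sum over all rows of a gene, or with RefSeq mRNA rows only, 8 members had a mean of at least 1 CPM. This count could not change. *Fosb*, the only member below 1 CPM, has 1 row, and the highest row of each member is a RefSeq row. Per kilobase of transcript 5 reached 1, as did most genes with a known transcript length. The median member lay above 60.3% of all gene symbols, above 65.2% per kilobase and above 28.9% of the 13001 genes that reached 1 CPM, a background that leaves out low genes by construction. Of 18 values of single members under another choice of rows, 16 were equal to the value reported. That equality was fixed in advance. All members except *Myc* and *Max* have 1 row, and the highest rows of *Myc* and *Max* are RefSeq rows. It therefore says nothing about the stability of the levels. The sum over rows raised *Myc* to 19.7 CPM and *Max* to 71.9 CPM. The RefSeq rows of each had almost the same mean, so the sum may count reads more than once. The planned DESeq2 test, its size factors, the fit without a filter and the fits without 1 replicate all need counts of single kidneys and were not run. No paired analysis was possible because the table holds no value of a single kidney.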
